A study of Mus musculus with 6 samples.

Results

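Scavenger receptors are the surface proteins with which macrophages (Mφs) take up modified lipoproteins, dead cell remnants and microbes. The 9 genes described here are Msr1, Marco, Colec12, Cd36, Scarb1, Olr1, Stab1, Lrp1 and Cd5l, and they were found by symbol among the 41549 genes of the deposited table. They were measured by messenger RNA sequencing in 6 libraries of M2 Mφs. Bone marrow cells of wild type mice (C57Bl/6 N by the methods of the study) had been differentiated with macrophage colony-stimulating factor, transfected, and then polarized with IL-4 and IL-13 toward the anti-inflammatory state called M2. The 3 libraries of the αGlu group came from cells transfected with an antisense oligonucleotide against 5′tRF-Glu(CTC), a piece of a glutamate tRNA cut from its 5′ side. The 3 libraries of the Ctr group came from cells given a control antisense. All other steps were shared by both groups, so an unpolarized or untransfected state is not part of the comparison. The labels number the libraries within each group without saying what a number stands for, while the study describes its replicates as independent experiments and its primary cell replicates as preparations from different animals.

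These receptors differ in structure and share ligands. Msr1, Marco and Colec12 belong to class A, which binds polyanionic ligands such as acetylated lipoprotein, bacteria and silica. Cd36 and Scarb1 belong to class B. The first takes up oxidized lipoprotein and long-chain fatty acids, and the second, also called SR-BI, exchanges cholesterol with high density lipoprotein. Olr1 (LOX-1) is a lectin-like receptor for oxidized lipoprotein. Stab1 and Lrp1 are large endocytic receptors that clear matrix fragments, proteases and apolipoproteins. Cd5l is a secreted member of the scavenger receptor cysteine-rich family. In Mφs, Cd36 is widely known as a gene under the control of IL-4 and the nuclear receptor Pparg.

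The reagent that separates the groups is shown first, because every comparison rests on it. The lines give the target and the antisense as DNA letters, with the stretch that pairs in capitals. A single base at the 5′ end of the target stays unpaired. The target as listed has 21 bases, while the study describes longer fragments in islet cells, so bases on their 3′ side lie outside it.
target, 5′ to 3′: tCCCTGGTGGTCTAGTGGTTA
antisense, 5′ to 3′: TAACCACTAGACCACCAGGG
Messenger RNA libraries do not measure the fragment itself, so they give no check of the knockdown. The study reports separately that the antisense inhibited the fragment in Mφs, without saying whether the same preparations were used. The 20 bases of the antisense were also compared with all GENCODE transcripts of the 9 genes. The longest perfectly complementary stretch was 11 bases in Stab1, 9 in Cd36, 8 in Msr1, Colec12, Scarb1, Lrp1 and Cd5l and 7 in Olr1, and Marco held none of 7 bases. The median over 21817 protein-coding genes was 8 bases, and 0.944% of them held a stretch as long as that of Stab1. Long transcripts have more chances of such a stretch, and whether any of these is bound was not measured.

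Before the values, the libraries need a description. Total counts were 17912831 to 30386653 per library. αGlu 1 stood apart from the other αGlu libraries. On the first principal component, which held 76.7% of the variance, it lay at -22.2, while αGlu 2 and αGlu 3 lay at 74.4 and 74.7 and the Ctr libraries between -50.5 and -35.8. Its expression values correlated at 0.966 to 0.982 with the Ctr libraries and at 0.929 with both αGlu 2 and αGlu 3. Each result is therefore given with all 6 libraries and without αGlu 1, a choice made with these values in view. The second fit has only αGlu 2 and αGlu 3 in its αGlu group. Dropping the αGlu library nearest the controls can make its adjusted p values too small, so they serve as description. All 10 macrophage markers were above 1 CPM (reads scaled to library size), with a summed level of 12129 to 13633 CPM in Ctr and 12916 to 19573 CPM in αGlu, the lowest of the latter in αGlu 1. Lyz2 was the largest part of this sum. The markers did not share a direction. In αGlu 2 and αGlu 3, Cd68 and Mertk were below every control and the other markers above.

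With all 6 libraries, no gene of the 9 was called, and no gene of the transcriptome was either. A call was an adjusted p under 0.1 with a log2 fold change beyond 1 in edgeR's quasi-likelihood test. The share called was 0% of the 11933 genes tested, and 2943 genes had an unadjusted p under 0.05. Of the 9 genes, 8 were tested, since Marco had too few reads in 4 libraries. At an unadjusted p under 0.05, 3 were higher in αGlu (Msr1, Olr1 and Stab1), where 12.7% of all genes tested were, and 2 were lower (Colec12 and Scarb1), where 11.9% were, or 24.7% in either direction. In the same 6 libraries DESeq2 called 4 of the 9 genes, with Marco, Olr1 and Stab1 higher and Colec12 lower. By DESeq2, 4.21% of 13742 genes were called higher and 3.92% lower. An edgeR likelihood-ratio test called Olr1, Stab1 and Colec12, where 3.87% of all genes tested were called higher and 3.66% lower. Without αGlu 1, edgeR called 8 of the 9 genes, 4 higher (Msr1, Marco, Olr1 and Stab1) and 4 lower (Colec12, Cd36, Lrp1 and Cd5l), where 8.05% of 12340 genes were called higher and 10.5% lower. Scarb1 was lower as well, but its log2 fold change of -0.96 stayed inside the limit of 1.

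**Figure D1:**
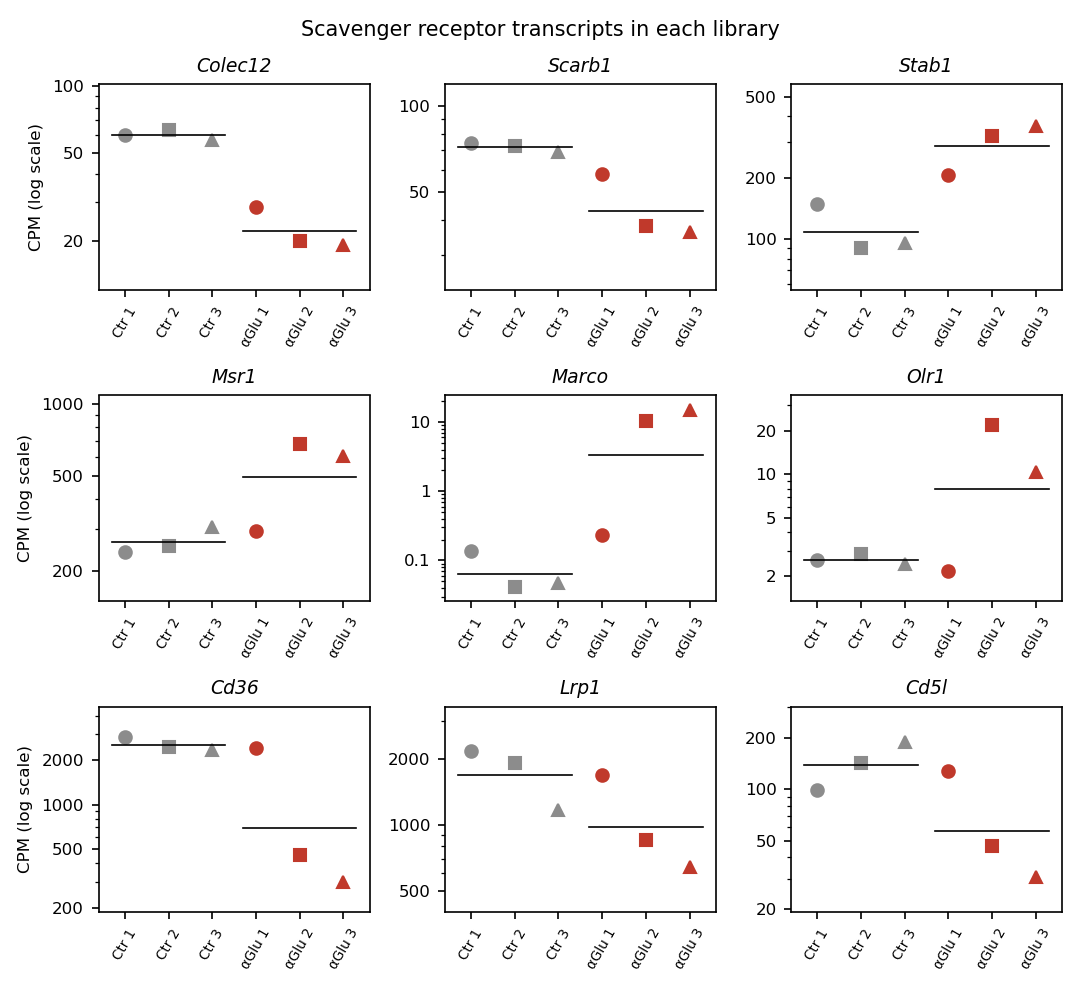
Level of each gene in each library, in CPM on a log scale; points are libraries, gray for Ctr and red for αGlu, and the line is the geometric mean of a group. αGlu 1 lies apart from the Ctr points for Colec12, Scarb1 and Stab1 and among or near them for Msr1, Olr1, Cd36, Lrp1 and Cd5l, while for Marco it rests on 4 reads.

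Of the class A receptors, Colec12 had the smallest unadjusted p of the 8 genes tested and ranked 7 among all genes. This collectin binds oxidized lipoprotein and microbial sugars (chromosome 18, 9707595 to 9882644, plus strand, GRCm38). Its level was 59.97, 63.7 and 57.0 CPM in Ctr 1, 2 and 3. It was 28.3, 19.9 and 19.2 CPM in αGlu 1, 2 and 3. All αGlu libraries were thus below all Ctr libraries, αGlu 1 included. The log2 fold change was -1.43 ± 0.17 (SE, adjusted p = 0.149 in edgeR) with 6 libraries and -1.63 ± 0.08 (adjusted p = 4.99e-05 in edgeR) without αGlu 1. By DESeq2 the adjusted p with 6 libraries was 2.36e-09.

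Msr1 encodes the founding class A receptor for acetylated lipoprotein (chromosome 8, 39581685 to 39642673, minus strand). It was measured at 239.6, 253 and 306 CPM in the Ctr libraries. The αGlu libraries held 293, 676 and 605 CPM. αGlu 1 lay within the Ctr range, and αGlu 2 and αGlu 3 were both above it. In edgeR the log2 fold change was 0.98 ± 0.32 (SE, adjusted p = 0.167 in edgeR) with 6 libraries and 1.26 ± 0.13 (adjusted p = 0.000706 in edgeR) without αGlu 1. DESeq2 gave an adjusted p of 0.0402, with a log2 fold change of 0.97 that did not reach the limit of 1.

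Marco, a class A receptor for bacteria and particles, was close to absent in the controls (chromosome 1, 120474538 to 120505024, minus strand). Its raw counts were 3, 1 and 1 reads in Ctr and 4, 333 and 412 reads in αGlu. In CPM these were 0.136, 0.0418 and 0.0464 in Ctr and 0.229, 10.5 and 15.1 in αGlu. The 4 reads of αGlu 1 gave an exact Poisson interval of 0.0625 to 0.587 CPM, which overlaps that of Ctr 1 (0.0281 to 0.398 CPM), so αGlu 1 could not be told from the controls at this depth. Over the whole groups, 749 reads stood against 5, and the ratio of the 2 levels in CPM was 132, and counting error alone gave exact 95% bounds of 56.4 and 408. DESeq2 fitted 6.84 ± 1.29 (log2 fold change with SE, adjusted p = 2.14e-05). Without αGlu 1, edgeR gave 7.33 ± 0.37 (adjusted p = 5.39e-05). Leaving out a Ctr library in place of αGlu 1, edgeR fitted 6.48 to 7.47, with no call.

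Cd36 had the most reads of the 9 genes in the Ctr libraries and in αGlu 1, though not in αGlu 2 and αGlu 3, and the widest spread among αGlu libraries of the genes that were lower (chromosome 5, 17781690 to 17888801, minus strand). The Ctr libraries held 2897, 2460 and 2334 CPM. The αGlu libraries held 2413, 453 and 299.9 CPM. αGlu 1 was inside the Ctr range, and the other two were far below every control. With 6 libraries the log2 fold change was -1.28 ± 0.79 (SE) and the adjusted p was 0.334 in edgeR and 0.233 in DESeq2. Without αGlu 1 it was -2.77 ± 0.22 (adjusted p = 0.000261 in edgeR), the lowest of the 9.

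Scarb1, the other class B receptor, had the tightest controls (chromosome 5, 125277087 to 125341094, minus strand). Its level was 74.6, 72.7 and 69.3 CPM in Ctr. It was 57.8, 37.96 and 36.3 CPM in αGlu. No αGlu library reached a control, and αGlu 1 lay between the controls and the other αGlu libraries. For Scarb1 the log2 fold change was -0.72 ± 0.19 (SE, adjusted p = 0.156 in edgeR) and, without αGlu 1, -0.96 ± 0.07 (adjusted p = 0.000238 in edgeR). By DESeq2 with 6 libraries the adjusted p was 0.0232.

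Olr1, the lectin-like receptor, had few reads in the controls (chromosome 6, 129485244 to 129507165, minus strand). Its level was 2.59, 2.84 and 2.41 CPM in Ctr. It was 2.18, 21.7 and 10.5 CPM in αGlu. αGlu 1 lay below all controls, whereas αGlu 2 and αGlu 3 lay above all of them and differed from each other more than the controls did. The log2 fold change was 2.14 ± 0.75 (SE, adjusted p = 0.175 in edgeR), and it was 2.62 ± 0.32 (adjusted p = 0.00134 in edgeR) without αGlu 1. Without αGlu 2, the library with the highest level, it was 1.29 ± 0.63 (SE, adjusted p = 0.448 in edgeR). DESeq2 gave an adjusted p of 0.034 with 6 libraries. Over the groups, 1013 reads stood against 177, a ratio of levels in CPM of 5.05 with a 95% interval of 4.30 to 5.96 for counting error.

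Among the large endocytic receptors, Stab1 and Lrp1 moved in opposite directions without αGlu 1. Stab1 (stabilin-1, chromosome 14, 31139013 to 31168641, minus strand) clears acetylated lipoprotein and the matrix protein Sparc. It was at 148, 90.1 and 96.0 CPM in Ctr. It was at 206, 320.0 and 359 CPM in αGlu. All αGlu libraries were above all controls. The log2 fold change was 1.40 ± 0.29 (SE, adjusted p = 0.149 in edgeR) and 1.603 ± 0.22 (adjusted p = 0.00217 in edgeR) without αGlu 1, and the DESeq2 adjusted p with 6 libraries was 0.000451. Exons of Stab1 share bases with Nt5dc2 on the opposite strand. The library kit kept strand, but whether the counting used it was not given in the sources used here.

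Lrp1, the receptor for apolipoprotein E and protease complexes, varied among its own controls (chromosome 10, 127538161 to 127621148, minus strand). It was at 2186, 1926 and 1173 CPM in Ctr. It was at 1698, 854 and 641 CPM in αGlu. Ctr 3 was the lowest control, αGlu 1 lay inside the Ctr range, and the other αGlu libraries lay below it. For Lrp1 the log2 fold change was -0.73 ± 0.43 (SE, adjusted p = 0.315 in edgeR) and -1.24 ± 0.28 (adjusted p = 0.0156 in edgeR) without αGlu 1.

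Cd5l, whose product is a secreted inhibitor of apoptosis in Mφs, also had wide controls (chromosome 3, 87357881 to 87371073, plus strand). Its level was 99.0, 143 and 189.7 CPM in Ctr. It was 127, 46.7 and 30.9 CPM in αGlu. αGlu 1 was again within the Ctr range and the other αGlu libraries were below it. The log2 fold change was -1.08 ± 0.56 (SE, adjusted p = 0.269 in edgeR) and -1.89 ± 0.31 (adjusted p = 0.00458 in edgeR) without αGlu 1.

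**Figure D2:**
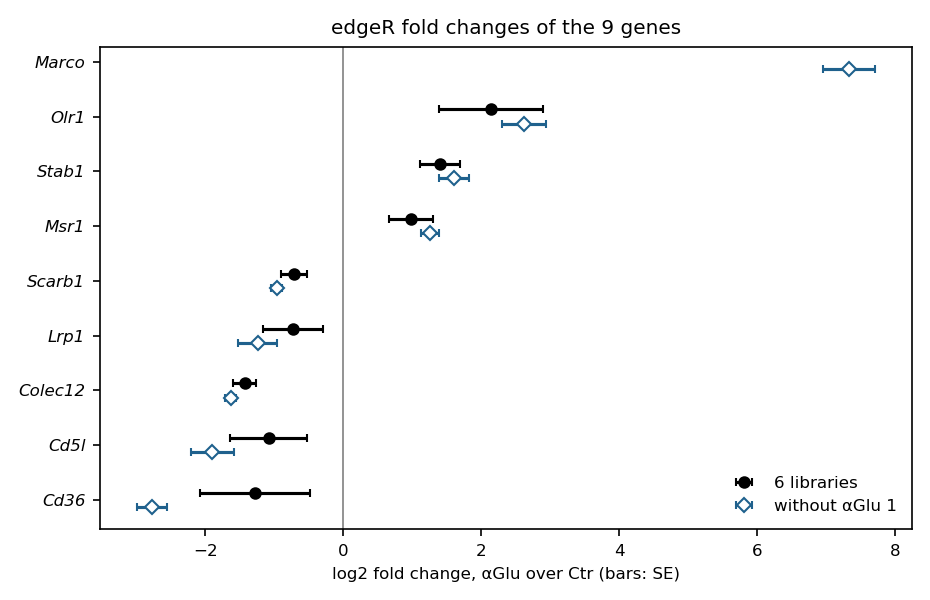
Log2 fold change of αGlu over Ctr for each gene from edgeR, with standard errors; filled circles use 6 libraries and open diamonds leave out αGlu 1. The sign is the same in both for all 8 genes with both values, and the value for Cd36 goes from -1.28 to -2.77; Marco has only a diamond.

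The place of αGlu 1 differed among the 8 genes tested, as it did over all genes tested. Groups did not overlap for 1 gene higher in αGlu (Stab1), where 14.2% of all genes tested did so, and for 2 lower (Colec12 and Scarb1), where 15.9% did. For Msr1, Cd36, Lrp1 and Cd5l αGlu 1 lay inside the Ctr range. For Olr1 it lay below that range. Marco, not tested with 6 libraries, had no overlap either, but its αGlu 1 value rests on 4 reads. Without αGlu 1 none of the 9 genes had overlapping groups, with 4 higher and 5 lower, where 34.1% and 31.9% of 12340 genes showed the same. The receptors did not share one direction, nor did the class A receptors, of which Msr1 and Marco were higher and Colec12 lower without αGlu 1.

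Markers of other cell types were read beside these values. In bulk RNA, fewer cells of a type and less RNA per cell cannot be told apart. Of the endothelial list, 2 of 7 genes were above 1 CPM on average. Its summed level was 126 to 183 CPM in Ctr and 54.6 to 149.98 CPM in αGlu, nearly all of it Vwf and Kdr. The defining gene Cdh5 did not exceed 0.441 CPM and Lyve1 had 0 reads in every library. Vwf was at 168, 102 and 81.1 CPM across Ctr and at 93.7, 30.3 and 23.8 CPM across αGlu, and so moved in the direction of Cd36 and Lrp1. Kdr was at 14.5, 43.9 and 44.6 CPM in the controls and at 56.0, 29.2 and 30.5 CPM in the αGlu libraries, without such an order. The part of these transcripts in the lower values of Cd36, Scarb1 and Lrp1 was not tested. The neutrophil, dendritic cell, fibroblast, adipocyte, megakaryocyte and lymphocyte lists each summed to at most 6.85 CPM in any library, and Ly6g, Xcr1, Lep and Nkg7 had 0 reads.

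Levels between genes can be compared only per transcript length, for which the deposited TPM values, which divide the reads by transcript length, served. In Ctr the order of mean TPM was Cd36 (2157 ± 288, SD, n = 3), Lrp1 (301 ± 93.1), Cd5l (212 ± 64.5), Msr1 (126 ± 15.4), Stab1 (32.8 ± 10.04), Scarb1 (25.6 ± 1.33), Colec12 (20.8 ± 1.14), Olr1 (2.21 ± 0.177) and Marco (0.118 ± 0.0864). The ranges of Lrp1 and Cd5l overlapped, as did those of Stab1 and Scarb1, and all other neighbours were separate. Cd36 ranked 44 to 57 among all genes by TPM in the Ctr libraries and 50 in αGlu 1, but 317 and 500 in αGlu 2 and αGlu 3. Msr1 moved up the same ranking, from 930 to 1122 in Ctr and 975 in αGlu 1 to 387 and 427.

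The summed TPM of the 9 genes was 3224, 2770 and 2639 in the Ctr libraries. It was 2815, 1131 and 928 in αGlu 1, 2 and 3. The fall in the sum of αGlu 2 and αGlu 3 went with Cd36, which made up 73.7% to 77.0% of the summed TPM in Ctr and 74.1% in αGlu 1, but 35.7% in αGlu 2 and 29.6% in αGlu 3. Msr1 made up 3.60% to 5.46% in Ctr, 5.099% in αGlu 1, and 30.2% and 33.8% in αGlu 2 and αGlu 3. Per length, Cd36 transcripts outnumbered those of Msr1 by 13.5 to 21.4 to 1 in Ctr and by 14.5 to 1 in αGlu 1. In αGlu 2 the ratio was 1.18, and in αGlu 3, at 0.877, Msr1 was the most abundant of the 9. Colec12 became the lowest of the 9 in αGlu 2 and αGlu 3, below Marco and Olr1.

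**Figure D3:**
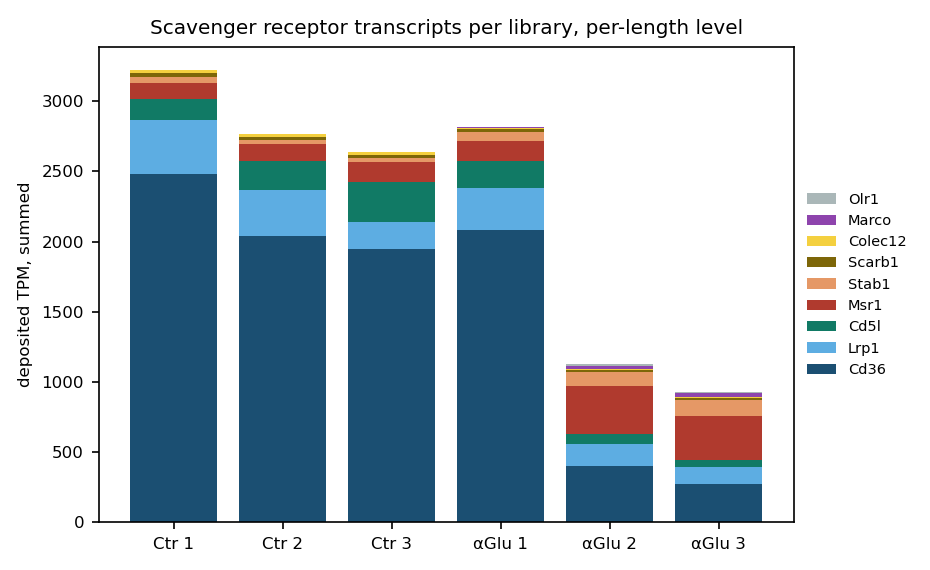
Summed deposited TPM of the 9 genes in each library, stacked by gene; each bar is 1 library. Cd36 fills most of the Ctr bars and of αGlu 1, and the bars of αGlu 2 and αGlu 3 (1131 and 928) are lower with a larger part from Msr1 and Stab1.

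Genes with a like profile were sought among the 8395 genes whose log2 CPM averaged 3 or more, by the root mean square difference of centred log2 CPM over the 6 libraries. The nearest to Scarb1 was Tusc3 (0.040), the nearest to Msr1 was Cep19 (0.059) and the nearest to Lrp1 was Ahnak2 (0.098). Rims3 was nearest to Cd36 (0.125) and Cttn to Colec12 (0.137). Olr1 was nearest to Hilpda (0.165), a lipid droplet protein gene, Cd5l to Tmem154 (0.210) and Stab1 to Atf5 (0.230). With 6 libraries in 2 groups, many genes share such a profile, and the measure is a description.

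Promoters were taken from RefSeq (GRCm38.p6, 250 bases before to 50 after the start), which gave a match for 6 of the 9 genes. The motifs of 3 factors known in Mφs were searched on both strands. The AP-1 letters TGANTCA occurred in the promoter of Olr1 alone among the 6, against 7.81% of 32851 promoters. The antioxidant response letters TGACNNNGC occurred in Lrp1 alone, against 12.39%, and the PU.1 letters GAGGAAGT in none, against 3.20%. The 250 bases before the starts of Olr1 and Marco, the pair with the fewest reads in Ctr and far more in αGlu 2 and αGlu 3, are shown on the minus strand with the AP-1 match in capitals. They lie at chr6:129507166-129507415 and chr1:120505025-120505274.
Olr1, 5′ to 3′: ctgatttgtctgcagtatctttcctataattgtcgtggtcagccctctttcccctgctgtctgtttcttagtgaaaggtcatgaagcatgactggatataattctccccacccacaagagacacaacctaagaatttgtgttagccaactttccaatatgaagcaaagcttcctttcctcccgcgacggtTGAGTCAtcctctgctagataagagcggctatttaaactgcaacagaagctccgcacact
Marco, 5′ to 3′: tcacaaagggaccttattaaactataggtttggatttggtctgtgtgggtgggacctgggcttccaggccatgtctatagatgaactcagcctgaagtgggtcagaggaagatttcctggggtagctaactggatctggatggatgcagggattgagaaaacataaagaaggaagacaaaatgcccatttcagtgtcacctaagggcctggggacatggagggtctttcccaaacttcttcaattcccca
The match in Olr1 begins 60 bases before the start, and no match to the 3 motifs lies in the stretch of Marco. A match describes letters and does not show that a factor is bound.

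A further 4 lists of related genes were read beside the receptors. With 6 libraries none of their genes was called by edgeR's quasi-likelihood test, so they are described by counts and by the median log2 fold change, which was 0.02 over all 11933 genes tested and -0.72 over the 8 receptor genes tested. Among other scavenger receptors, 16 of 23 genes were tested and the median was -0.24. Here 2 were higher at an unadjusted p under 0.05 (Cxcl16 and Cd14) and 3 lower (among them Ssc5d and Tfrc), against 12.7% and 11.9% of all genes tested. Without αGlu 1, 4 were called higher (Cd163, Cxcl16, Cd14 and Mrc1) and 4 lower (among them Stab2, Ssc5d and Tfrc) by edgeR, against 8.05% and 10.5% of all genes. Ssc5d, a soluble cysteine-rich receptor, was at 1.77, 3.76 and 3.48 CPM in the controls and at 1.49, 1.13 and 0.880 CPM in the αGlu libraries (log2 fold change -1.37 ± 0.37, SE). Stab2, the close relative of Stab1, was chosen after its values were seen. It was at 27.6, 25.3 and 18.3 CPM across Ctr and at 12.7, 0.881 and 1.91 CPM across αGlu, opposite to Stab1.

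The partners of CD36 and SR-BI and the genes of fatty acid handling had a median of 0.15 over 19 of 20 genes. At an unadjusted p under 0.05, 7 were higher and 1, Cd9, was lower, where 12.7% of all genes were higher and 11.9% lower. Without αGlu 1, edgeR called 5 higher (Fabp5, Acsl1, Cd81, Thbs1 and Tlr2) and Cd9 lower, with all-gene shares of 8.05% and 10.5%. Thbs1 encodes thrombospondin-1, a ligand of CD36. It was at 12.4, 11.2 and 10.02 CPM in the controls and at 10.4, 479 and 400.5 CPM in the αGlu libraries, so that it was highest in the libraries where Cd36 was lowest. On the log2 scale its fold was 4.73 ± 1.28 (SE, adjusted p = 0.157 in edgeR) with 6 libraries and 5.29 ± 0.14 (adjusted p = 7.43e-06 in edgeR) without αGlu 1. Acsl1, which activates long-chain fatty acids, was at 36.6, 33.5 and 30.8 CPM across Ctr and at 35.04, 641 and 443 CPM across αGlu. αGlu 1 lay within the Ctr range for both genes.

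Of the partners and ligands of LRP1 and stabilin-1, 17 of 20 genes were tested, with a median of -0.41. At an unadjusted p under 0.05, 1 was higher (Dab2) and 4 were lower (Plau, Plaur, Calr and Sparc), beside 12.7% and 11.9% over all genes. Without αGlu 1, edgeR called Dab2 higher and 6 genes lower, the former 4 with Apoe and Lpl, beside 8.05% higher and 10.5% lower over all genes. Sparc, the matrix protein that stabilin-1 takes up, was at 5.82, 1.003 and 1.995 CPM in the controls and at 0.803, 0.252 and 0.220 CPM in the αGlu libraries, opposite in direction to Stab1. The fitted log2 fold was -2.86 ± 0.85 (SE, adjusted p = 0.160 in edgeR), or -3.61 without αGlu 1, and Ctr 1 was far above the other controls. Plau, the urokinase gene, whose product LRP1 clears, was at 74.3, 58.0 and 79.3 CPM across Ctr and at 55.6, 25.8 and 27.7 CPM across αGlu. Lpl, named after its values were seen, went from 3748, 3671 and 3563 CPM in Ctr to 1977, 102 and 101 CPM in αGlu, and its product is a ligand of LRP1.

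Among 22 transcription factors named for scavenger receptor genes, all were tested and the median was -0.02. At an unadjusted p under 0.05, 5 were higher (among them Ppard, Rxrb, Cebpb and Ets2) and 5 lower (Nr1h3, Spi1, Klf2, Klf4 and Srebf2), where all genes gave 12.7% and 11.9%. Without αGlu 1, edgeR called 3 higher (Cebpb, Fos and Ets2) and 7 lower, where all genes gave 8.05% and 10.5%. Srebf2, a sterol-regulated factor, was at 164, 115 and 100.3 CPM in the controls and at 64.5, 61.1 and 63.7 CPM in the αGlu libraries. In contrast to Cd36, Srebf2 was as low in αGlu 1 as in the other αGlu libraries. Klf4 was at 23.99, 21.5 and 26.8 CPM across Ctr and at 17.6, 10.95 and 11.04 CPM across αGlu. Pparg, which is known to drive Cd36 in Mφs, was named after its values were seen. It was at 201, 217 and 201 CPM in the controls and at 183, 13.001 and 12.4 CPM in the αGlu libraries, with a log2 fold change of -1.58 (adjusted p = 0.373 in edgeR) with 6 libraries and -4.03 (adjusted p = 7.38e-06 in edgeR) without αGlu 1. Its αGlu 1 value lay below but near the controls. Cebpa and Tfeb were likewise below every control in αGlu 2 and αGlu 3. Without αGlu 1, 31.9% of 12340 genes were below every control and 34.1% above. Any part of Pparg in the values of Cd36 was not tested.

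**Figure D4:**
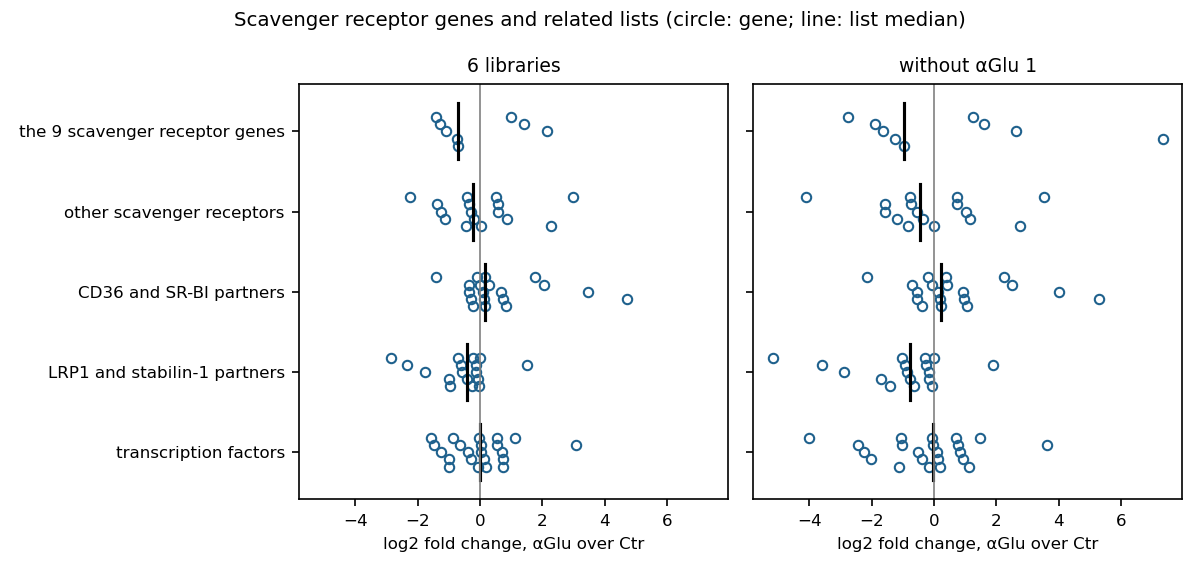
Log2 fold change of αGlu over Ctr from edgeR for the 9 genes and the 4 related lists; each circle is a gene and each vertical line the median of its list, with 6 libraries on the left, where Marco was not tested, and without αGlu 1 on the right. Genes of every list lie on both sides of 0, and the receptors reach from -2.77 to 7.33 without αGlu 1.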

How the data were processed

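Stranded mRNA libraries (3 Ctr, 3 αGlu) had been made from RNA of M2 Mφs. For processing, the authors used version 5.1 of the QIAGEN RNA-seq Analysis Portal, and the submitters' processing notes name GRCm38. Aligner, annotation and the treatment of multiply mapping reads are not given in the sources used here. The deposited counts are whole reads per gene, without normalization, and the deposited TPM values are scaled by gene length and depth. The deposited RPKM and CPM columns were not used here. Total counts were 17912831 to 30386653, and the smallest chi-square per gene between any pair of libraries was 19.8, so none was a duplicate.

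Counts were filtered with filterByExpr (minimum count 10, minimum total 15), which kept 11933 of 41549 genes, scaled with TMM and tested with the quasi-likelihood test of edgeR 4.0.16 in R 4.3.3 (group as the only term, two-sided, Benjamini-Hochberg). A call needed an adjusted p under 0.1 together with a log2 fold change beyond 1 in either direction. SEs of the quasi-likelihood fits come from each fold change divided by the root of its F statistic, and the SE given for DESeq2 is its own. CPM values are counts over TMM-scaled library sizes, and log2 CPM values for profiles have a prior count of 2. The script was tested on simulated data. The simulated libraries shared a single dispersion and held none like αGlu 1, so the test does not cover that feature. Coordinates are from GENCODE M21. Alternatives were DESeq2 1.42.0, limma-voom (limma 3.58.1), an edgeR likelihood-ratio test, RLE factors, library size alone, other filters, no fold limit, a replicate block and each library left out. The 9 genes, the lists and the comparison with the antisense were chosen with earlier results of these data known. The text names the 9 genes, the 2 tested genes with the smallest unadjusted p of each related list, the gene nearest in profile to each receptor, and the 3 most abundant endothelial markers. The values of 1 gene that this rule names are not reported here. Other genes were named after their values were seen.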

Additional observations from a re-analysis of the deposited data

How the results depend on the processing

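The direction of all 9 receptor genes was the same under every alternative that could be fitted for them. Calls depended on the test and on αGlu 1. DESeq2 called 1117 genes, 4 of them receptors, and the edgeR likelihood-ratio test called 899 genes, 3 of them receptors. The 4 lists are taken in the order other scavenger receptors, CD36 and SR-BI partners, LRP1 and stabilin-1 partners and transcription factors. DESeq2 called 6, 5, 3 and 4 of their 20, 20, 18 and 22 genes tested. Over all genes it called 4.21% higher and 3.92% lower. The likelihood-ratio test called 5, 4, 3 and 2 of 16, 19, 17 and 22, beside 3.87% higher and 3.66% lower over all genes. Leaving out each library in turn gave 0 to 2290 calls over all genes and 0 to 8 receptors. In the 4 lists it gave 0 to 8, 0 to 6, 0 to 7 and 0 to 10. Every upper value was the one without αGlu 1, where 8.05% of 12340 genes were called higher and 10.5% lower. The other leave-one-out fits, limma-voom (0 calls, 3101 genes at an unadjusted p under 0.05), RLE factors, both other filters and the threshold without a fold limit made no call. Under scaling by library size alone, the all-gene median went from 0.02 to 0.10 and no call was made. With the replicate number as a block, 17 genes were called and 0 receptors. Same-numbered libraries deviated together at r = 0.076, 0.065 and 0.154, above the differently numbered ones, at -0.112 to 0.046. All these values are small and do not settle whether the numbers pair the samples, and the main test used no pairing. Marco could be fitted only without the filter, with DESeq2 or in some leave-one-out fits, and in Ctr its level is limited by 1 to 3 reads per library.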
